A study of Mus musculus with 5 samples.

Results

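The 40 genes described here encode the machinery of glycolysis and the cellular response to low oxygen, and they were read in sorted mouse peritoneal macrophages. They were taken by gene symbol from a table of 30478 genes. All 40 symbols were found, in 41 rows, because Aldoa is listed under 2 Ensembl identifiers. By role they are 3 glucose transporters, 16 glycolytic enzymes, 2 lactate (monocarboxylate) transporters, 3 regulatory kinases, 10 other targets of hypoxia-inducible factor (HIF), and 6 HIF subunits or oxygen-sensing regulators. The first group, called wt, has 3 libraries from C57BL/6 mice. Mouse wt 1 was a male of 13 weeks, wt 2 a female of 13 weeks and wt 3 a female of 9 weeks. The second group, called mutant, has 2 libraries from C57BL/6 females of 8 weeks. Both mutants are homozygous for a Samhd1 deletion (del/del) and for a cGAS-GFP knock-in (ki/ki), so no difference between the groups can be assigned to either allele, and age differs between them as well. SAMHD1 degrades deoxynucleotides and cGAS senses cytosolic DNA, and the series asks how loss of SAMHD1 engages MDA5, a sensor of RNA. The 3 wt libraries differ in sex or age and so come from different animals. The labels do not say whether the 2 mutant libraries do, so the tests measure the spread between these libraries, which for the mutants may be technical.

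Glycolysis splits glucose into pyruvate in the cytosol and yields ATP without oxygen, and pyruvate is then reduced to lactate or oxidised in mitochondria. HIF is a pair of proteins, an oxygen-labile alpha subunit (HIF1A or EPAS1) and ARNT. When oxygen is present, EGLN enzymes hydroxylate the alpha subunit and VHL marks it for degradation. When oxygen is low the pair binds DNA at a short core, read as ACGTG or GCGTG, and switches on glucose transporters, glycolytic enzymes, angiogenic factors and its own inhibitors. Inflammatory activation of macrophages also stabilises HIF and raises glycolysis, and proliferating cells commonly have high glycolytic expression.

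The sequences below are promoters of the 5 genes of lowest adjusted p among those called in the comparison, followed by the 2 most abundant uncalled HIF targets, shown to let the letters of the HIF core be seen beside the values that follow. Each runs 5′ to 3′ on the gene's strand from 250 bases before to 50 bases after the RefSeq start (GRCm38.p6), and capitals mark every ACGTG or GCGTG, read on either strand (CACGT or CACGC when on the opposite strand).
P4ha1 (chr10:59323046-59323345, plus strand): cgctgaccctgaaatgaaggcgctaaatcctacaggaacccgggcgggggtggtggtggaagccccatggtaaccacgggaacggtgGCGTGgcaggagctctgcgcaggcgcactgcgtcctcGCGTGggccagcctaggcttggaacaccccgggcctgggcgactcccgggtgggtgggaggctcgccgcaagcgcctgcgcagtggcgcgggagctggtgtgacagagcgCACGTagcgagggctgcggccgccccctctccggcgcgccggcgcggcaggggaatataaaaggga
Pfkp (chr13:6648722-6649021, minus strand): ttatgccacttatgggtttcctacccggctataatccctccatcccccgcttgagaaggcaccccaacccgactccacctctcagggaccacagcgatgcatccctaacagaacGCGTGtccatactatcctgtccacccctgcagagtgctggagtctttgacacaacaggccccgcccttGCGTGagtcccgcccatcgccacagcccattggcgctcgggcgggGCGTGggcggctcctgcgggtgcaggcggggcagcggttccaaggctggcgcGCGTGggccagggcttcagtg
Hk2 (chr6:82774405-82774704, minus strand): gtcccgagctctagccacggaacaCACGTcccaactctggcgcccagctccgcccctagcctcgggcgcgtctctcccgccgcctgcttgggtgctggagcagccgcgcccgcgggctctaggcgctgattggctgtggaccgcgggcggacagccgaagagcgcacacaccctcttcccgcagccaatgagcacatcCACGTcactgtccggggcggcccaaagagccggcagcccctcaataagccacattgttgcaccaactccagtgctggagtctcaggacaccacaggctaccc
Slc2a1 (chr4:119108495-119108794, plus strand): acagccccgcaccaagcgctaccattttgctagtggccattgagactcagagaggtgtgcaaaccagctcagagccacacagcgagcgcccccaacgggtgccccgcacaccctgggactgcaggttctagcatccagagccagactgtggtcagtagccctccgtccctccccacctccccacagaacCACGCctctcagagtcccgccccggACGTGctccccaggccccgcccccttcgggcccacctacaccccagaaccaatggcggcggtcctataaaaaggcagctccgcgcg
Tpi1 (chr6:124814109-124814408, minus strand): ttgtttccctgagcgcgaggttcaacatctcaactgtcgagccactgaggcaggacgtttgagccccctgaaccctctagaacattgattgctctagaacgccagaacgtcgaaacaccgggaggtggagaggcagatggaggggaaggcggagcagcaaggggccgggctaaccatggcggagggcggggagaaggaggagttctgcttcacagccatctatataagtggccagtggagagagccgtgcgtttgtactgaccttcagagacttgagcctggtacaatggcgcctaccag
Mif (chr10:75860228-75860527, minus strand): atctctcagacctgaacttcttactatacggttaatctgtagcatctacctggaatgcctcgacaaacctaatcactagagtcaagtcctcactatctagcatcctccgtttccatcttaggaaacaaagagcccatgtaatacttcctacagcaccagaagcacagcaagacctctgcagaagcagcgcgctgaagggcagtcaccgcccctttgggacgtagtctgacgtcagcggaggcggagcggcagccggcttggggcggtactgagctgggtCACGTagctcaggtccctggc
Vegfa (chr17:46032328-46032627, minus strand): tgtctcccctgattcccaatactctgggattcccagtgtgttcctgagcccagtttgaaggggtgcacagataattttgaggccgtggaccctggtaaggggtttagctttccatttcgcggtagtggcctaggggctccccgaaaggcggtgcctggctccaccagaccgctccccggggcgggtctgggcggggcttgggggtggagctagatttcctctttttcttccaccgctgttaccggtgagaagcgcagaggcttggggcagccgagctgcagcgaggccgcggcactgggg

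RefSeq promoters were found for 37 of the 40 genes, with 56 starts in all, and 44 of these (78.6%) held at least 1 core. The share was 43.8% over all 32851 RefSeq promoters of the same length and 60.2% over the promoters whose symbol was among the genes tested. The 2 letter strings can overlap where CACGTG is read on both strands, and a gene with several starts counts several times. Among the promoters shown, Pfkp held 4 cores, P4ha1 3, Slc2a1 and Hk2 2 each and Mif 1. Tpi1 and Vegfa held 0 in this window. Vegfa has 2 RefSeq starts, and the start not shown held at least 1 core. Taking for each gene the start nearest to its annotated 5′ end, 10 of 16 glycolytic enzymes and 8 of 9 other HIF targets with an entry held a core. A match is a string of letters, and binding was not measured.

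The libraries held 27282354 to 33119434 reads. Samhd1 read 17823, 16777 and 18274 in wt 1 to 3 and 1279 and 1431 in mutants 1 and 2, in normalized counts. Cgas, the gene that carries the knock-in, read 974, 1211 and 968 in wt 1 to 3 and 184 and 85.1 in mutants 1 and 2. The share of reads on Rn18s, the 18S ribosomal RNA, was 0.599% to 1.64% in wt and 5.28% and 4.04% in mutants 1 and 2. The macrophage genes Adgre1, Cd68, Itgam and Lyz2 were abundant in every library, Cd68 at 25190 to 29821 normalized counts. Gata6 and Timd4, defining genes of resident large peritoneal macrophages, had 0 reads in all 5 libraries.

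At the adjusted threshold, several transcripts of glucose uptake, glycolysis and lactate export were called lower in the mutant libraries. Of the 10 other HIF targets, 1 was called lower and 2 higher. Fold changes were below 0 in 13 of 16 glycolytic enzymes and in 7 of 10 other HIF targets. Their median log2 fold changes were -0.40 and -0.47, and the difference between the lists was not tested. Slc2a1, Hk2, Pfkp, Tpi1, Slc16a3 and P4ha1 fell, while Kdm3a and Ndrg1 rose. All 40 genes had enough reads to test, and these 8 passed the limma test at an adjusted p of 0.05. That is 6 of 40 lower (15%) and 2 of 40 higher (5%), against 4.89% lower and 3.71% higher among all 14977 genes tested. In either direction 8 of 40 were called, against 8.6%, and the other 32 did not pass. The edgeR test called 5 lower and 2 higher, against 4.47% and 4.29% of all genes, and DESeq2 14 lower and 4 higher, against 8.73% and 7.48%. Fold changes were below 0 in 30 of 40 genes and in 49.9% of all genes. In 24 of 40 genes both mutant libraries lay below all wt libraries, and in 6 both lay above, against 26.9% and 24.3% of all genes tested. The median log2 fold change of the 40 genes was -0.37, and that of all genes tested was 0.00. Fold changes are mutant minus wt on log2(normalized count + 2), a scale that understates changes of low genes. In bulk RNA, fewer cells of a type and less RNA per cell cannot be told apart.

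**Figure D1:**
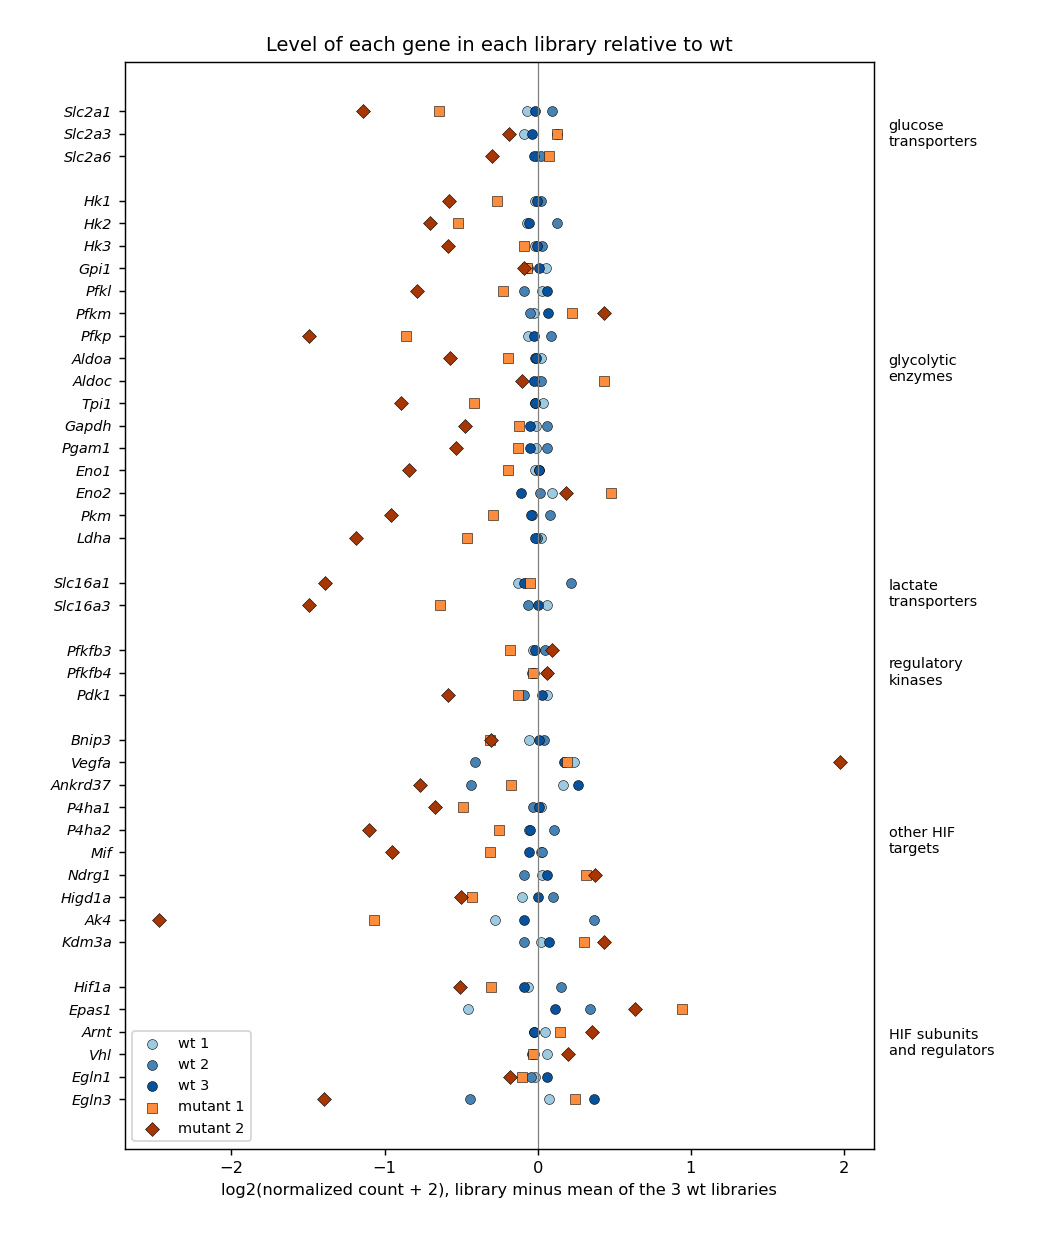
Level of each of the 40 genes in each library, as log2(normalized count + 2) minus the mean of the 3 wt libraries, grouped by role. Circles are wt libraries, squares mutant 1 and diamonds mutant 2. Mutant 2 lies below mutant 1 in 31 of 40 genes, against 49.4% of all genes tested. The Vegfa value of mutant 2 stands far to the right.

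None of the 8 calls survived the loss of a wt library. Their limma adjusted p was 0.0871 to 0.172 without wt 1, which leaves females only, 0.0543 to 0.143 without wt 2 and 0.0838 to 0.152 without wt 3. All 8 kept their direction each time. Over all genes, calls then numbered 173 to 286 lower and 29 to 80 higher, against 732 and 556 with every library. Without mutant 1, and without mutant 2, all 8 kept their direction. The lone mutant is then assumed to vary as the wt libraries do, so no spread between mutants enters these fits.

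Glucose enters through the SLC2A transporters. Slc2a1 (chromosome 4, 119108711 to 119137983, plus strand, GENCODE M21 on GRCm38, as for all positions here) encodes GLUT1, the main inducible glucose carrier of macrophages. Its normalized counts were 1559, 1745 and 1616 in wt 1 to 3 and 1045 and 742 in mutants 1 and 2. The groups did not overlap, and mutant 2 was the lower mutant. Slc2a1 fell from 1639.8 ± 95.8 (SD, n = 3) to 894 ± 214 (SD, n = 2), a 1.86-fold difference (log2 fold change -0.89, SE 0.149, limma adjusted p = 0.0216). Slc2a6, which encodes a transporter of lysosomal membranes, read 2583, 2632 and 2549.9 in wt 1 to 3 and 2721 and 2102 in mutants 1 and 2. Mutant 1 lay above and mutant 2 below the wt range, so the groups interleaved (log2 fold change -0.11, 95% interval -0.39 to 0.16, limma adjusted p = 0.529). Slc2a3, the high-affinity carrier GLUT3, read 654, 758 and 679 in wt 1 to 3 and 761 and 612 in mutants 1 and 2, again on both sides of wt (log2 fold change -0.03, 95% interval -0.33 to 0.27, limma adjusted p = 0.901). Per kilobase of exon, the wt level was 806 for Slc2a6, 468 for Slc2a1 and 96.2 for Slc2a3. Slc2a1 made up 33.2% to 35% in wt, 23.8% in mutant 1 and 22.3% in mutant 2 of the 3 transporters on this scale.

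Hexokinases phosphorylate glucose and hold it in the cell. Hk2 (chromosome 6, 82725025 to 82774454, minus strand), the inducible form that binds mitochondria, read 1520.4, 1742 and 1532 in wt 1 to 3 and 1111 and 977 in mutants 1 and 2. Both mutants lay below every wt library and close to each other. Hk2 fell from 1598 ± 125 (SD, n = 3) to 1044 ± 94.5 (SD, n = 2) (log2 fold change -0.61, SE 0.0988, limma adjusted p = 0.0195). Hk1, the widely expressed form, read 5095, 5246 and 5159 in wt 1 to 3 and 4290.2 and 3462 in mutants 1 and 2, which also separated the groups, but its log2 fold change of -0.42 missed the threshold (limma adjusted p = 0.0526). Hk3, the form enriched in myeloid cells, was the most abundant hexokinase at 3493 per kilobase in wt, against 606 for Hk1 and 268 for Hk2. Its counts were 12681, 13089 and 12809 in wt 1 to 3 and 12115 and 8550.0 in mutants 1 and 2, so mutant 1 stood just under the wt range and mutant 2 well under it (log2 fold change -0.34, 95% interval -0.68 to 0.01, limma adjusted p = 0.168). Gpi1, the isomerase of the next step, had the smallest fold change of the enzymes, at 14514 to 15792 in wt and 14492 and 14289 in mutants 1 and 2 (log2 fold change -0.08, 95% interval -0.25 to 0.09, limma adjusted p = 0.488).

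Phosphofructokinase, the committed step of glycolysis, is assembled from the products of 3 genes, of which 1 fell and 2 did not pass. Pfkp (chromosome 13, 6579768 to 6648777, minus strand), the platelet-type subunit, read 5132, 5697 and 5285 in wt 1 to 3 and 2949 and 1905 in mutants 1 and 2. Both mutants stood far under wt, mutant 2 further than mutant 1. Pfkp fell from 5371 ± 292 (SD, n = 3) to 2427 ± 738 (SD, n = 2), a 2.26-fold difference and the largest called among the 40 (log2 fold change -1.18, SE 0.177, limma adjusted p = 0.0157). Pfkl, the liver-type subunit, read 2557, 2366 and 2620.4 in wt 1 to 3 and 2151 and 1451 in mutants 1 and 2, with the mutants below wt (log2 fold change -0.51, limma adjusted p = 0.0986). Pfkm, the muscle-type subunit, read 658, 647 and 701 in wt 1 to 3 and 783 and 903 in mutants 1 and 2, and here both mutants were above wt, mutant 2 the more so (log2 fold change 0.33, limma adjusted p = 0.0824). Neither Pfkl nor Pfkm passed. Per kilobase, Pfkm formed 19.9% to 21% in wt, 30.2% in mutant 1 and 42.9% in mutant 2 of the 3 subunits, and Pfkp 39.6% to 43.7% in wt, 28.3% in mutant 1 and 22.6% in mutant 2. The log2 ratio of Pfkm to Pfkp was higher by 1.51 in the mutants, without overlap (exact permutation test, two-sided, p = 0.1, the smallest that 3 against 2 allows).

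**Figure D2:**
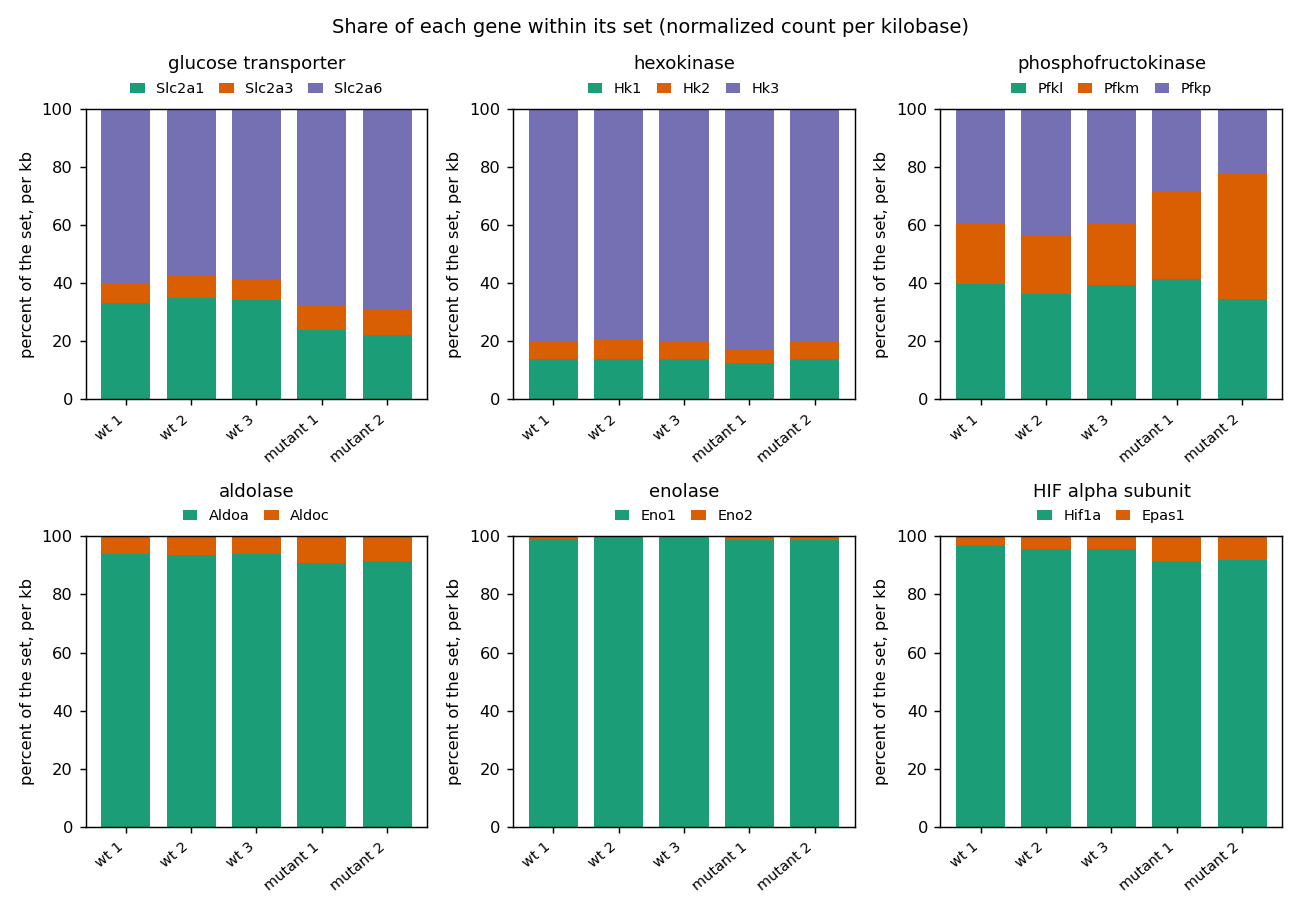
Share of each gene within 6 sets of related genes in each library, in percent of the summed normalized count per kilobase of exon. The Pfkm share is 19.9% to 21% in the wt libraries, 30.2% in mutant 1 and 42.9% in mutant 2, and the Slc2a1 share is lower in both mutants.

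The later steps of the pathway run from aldolase to lactate. Tpi1 (chromosome 6, 124810586 to 124814296, minus strand), which interconverts the triose phosphates, read 14608, 14097 and 14064 in wt 1 to 3 and 10672 and 7681 in mutants 1 and 2. The groups did not overlap. Tpi1 fell from 14256 ± 305 (SD, n = 3) to 9177 ± 2114 (SD, n = 2) (log2 fold change -0.65, SE 0.137, limma adjusted p = 0.0401). Ldha, which reduces pyruvate to lactate, had a larger but more variable difference, at 18111, 17835 and 17627 in wt 1 to 3 and 12958 and 7847 in mutants 1 and 2. Mutant 1 lay below wt and mutant 2 further below, and Ldha missed the threshold (log2 fold change -0.82, SE 0.196, limma adjusted p = 0.0538). Pkm, which makes pyruvate, read 53123, 57598 and 53044 in wt 1 to 3 and 44559 and 28104 in mutants 1 and 2. The enolase Eno1, which acts just before it, read 23355, 23694 and 23736 in wt 1 to 3 and 20636 and 13184 in mutants 1 and 2. In both genes mutant 1 was modestly and mutant 2 strongly under wt, and neither passed, at log2 fold changes of -0.62 and -0.52 (limma adjusted p = 0.0885 and 0.112). Aldoa, the main aldolase, read 32676, 31794 and 31907 in wt 1 to 3 and 28048 and 21565 in mutants 1 and 2, both mutants under wt. Its log2 fold change was -0.39, that of the mutase gene Pgam1 -0.33 and that of the dehydrogenase gene Gapdh -0.30, with both mutants under wt in each and limma adjusted p of 0.0931 to 0.147. Aldoa and Pkm were the most abundant enzymes per kilobase, at 11036 and 10915 in wt, and at 8522 and 7265 in the mutants. The second Aldoa identifier had 12.8 to 34.1 normalized counts. Several of these enzymes (Gapdh, Aldoa, Pkm, Eno1, Ldha, Tpi1 and Pgam1) have near-identical processed copies in the mouse genome that can share reads, so their counts are uncertain to that extent. Eno1b, such a copy of Eno1, read only 8.51 to 20.6.

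Both minor paralogs of these steps had fold changes above 0 that did not pass. Aldoc, the brain-type aldolase, read 2370.1, 2412 and 2332 in wt 1 to 3 and 3198 and 2212 in mutants 1 and 2, with mutant 1 above and mutant 2 below the wt libraries (log2 fold change 0.17, limma adjusted p = 0.484). Eno2, the neuronal enolase, read 155, 147 and 134 in wt 1 to 3 and 204 and 166 in mutants 1 and 2, with both mutants above wt (log2 fold change 0.33, limma adjusted p = 0.183). The log2 ratio of Aldoc to Aldoa was higher by 0.55 and that of Eno2 to Eno1 by 0.85 in the mutants, without overlap. In all, 16 ratios between related genes were computed, of which 10 did not overlap between the groups. Each of those 10 had exact permutation p = 0.1, or 0.16 after Benjamini-Hochberg adjustment over the 16. Lack of overlap is common here: of all genes tested, taken singly, 26.9% had both mutants below all wt libraries and 24.3% above. The share among ratios of other gene pairs was not computed.

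Over the 16 enzymes, 3 fell, 0 rose and 13 did not pass, against 4.89% lower and 3.71% higher among all genes. At an unadjusted limma p under 0.05, 11 were lower and 1 higher, against 17.7% and 13.9% of all genes, shares that also stand behind the unadjusted counts below. The edgeR test called 3 lower and 0 higher (4.47% and 4.29% of all genes), and DESeq2 called 6 lower and 1 higher (8.73% and 7.48%), the latter Pfkm. Fold changes were negative in 13 of 16, the exceptions being Pfkm, Aldoc and Eno2, and the list median was -0.40. Reads on the 16 enzymes made up 0.812% to 0.846% of all reads in wt, 0.702% in mutant 1 and 0.489% in mutant 2. With Rn18s left out of the total, the shares were 0.826% to 0.858%, 0.742% and 0.51%.

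Lactate leaves through monocarboxylate transporters. Slc16a3 (chromosome 11, 120948480 to 120960868, plus strand), which encodes the exporter MCT4, read 3841, 3519.5 and 3691 in wt 1 to 3 and 2363 and 1303 in mutants 1 and 2. Both mutants lay under wt, mutant 2 the lower of them. Slc16a3 fell from 3684 ± 161 (SD, n = 3) to 1833 ± 749 (SD, n = 2), a 2.1-fold difference (log2 fold change -1.07, SE 0.23, limma adjusted p = 0.0429), a call that edgeR did not make (edgeR adjusted p = 0.0527). Slc16a1, the bidirectional transporter MCT1, read 550.5, 699 and 564 in wt 1 to 3 and 580.3 and 229 in mutants 1 and 2. Mutant 1 lay within the wt range and mutant 2 far under it (log2 fold change -0.72, 95% interval -1.60 to 0.17, limma adjusted p = 0.23).

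The 3 regulatory kinases included 0 calls by limma, edgeR or DESeq2, with 1 lower at an unadjusted limma p under 0.05. Pfkfb4, the most abundant of them per kilobase after Pdk1, and Pfkfb3 make the metabolite that activates phosphofructokinase. Pfkfb3 read 837 to 885 in wt and 756 and 912 in mutants 1 and 2. Pfkfb4 read 1632 to 1742 in wt and 1636 and 1746 in mutants 1 and 2, and both genes overlapped between the groups. Their 95% intervals were -0.29 to 0.20 and -0.16 to 0.19 on the log2 scale. Pdk1, which blocks the entry of pyruvate into the TCA cycle, read 3691, 3325 and 3606 in wt 1 to 3 and 3232 and 2356 in mutants 1 and 2, so mutant 1 stood just under the wt libraries and mutant 2 well under them (log2 fold change -0.36, limma adjusted p = 0.138).

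Of the 10 other HIF targets, 1 fell, 2 rose and 7 did not pass, against 4.89% lower and 3.71% higher among all genes. P4ha1 (chromosome 10, 59323296 to 59373304, plus strand), the main catalytic subunit of collagen prolyl hydroxylase, had the lowest adjusted p of the 40 genes. It read 2661, 2566 and 2629.6 in wt 1 to 3 and 1863 and 1644 in mutants 1 and 2, a tight wt group with both mutants well below. P4ha1 fell from 2619 ± 48.7 (SD, n = 3) to 1753 ± 155 (SD, n = 2) (log2 fold change -0.58, SE 0.0785, limma adjusted p = 0.0115). Its relative P4ha2 read 213, 239 and 214 in wt 1 to 3 and 186 and 102 in mutants 1 and 2, with mutant 2 the further from wt (log2 fold change -0.68, limma adjusted p = 0.127).

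Kdm3a and Ndrg1 went the other way. Kdm3a (chromosome 6, 71588972 to 71632990, minus strand), a histone demethylase induced by hypoxia, read 1967, 1819 and 2037 in wt 1 to 3 and 2388 and 2623 in mutants 1 and 2. Both mutants were above all wt libraries. Kdm3a rose from 1941 ± 111 (SD, n = 3) to 2505 ± 166 (SD, n = 2) (log2 fold change 0.37, SE 0.0831, limma adjusted p = 0.0479). Ndrg1 (chromosome 15, 66929318 to 66969640, minus strand), a hypoxia and stress marker, read 3939, 3634 and 4046 in wt 1 to 3 and 4811 and 5008 in mutants 1 and 2, again with the mutants above wt and near each other. Ndrg1 rose from 3873 ± 213 (SD, n = 3) to 4909 ± 139 (SD, n = 2) (log2 fold change 0.34, SE 0.0741, limma adjusted p = 0.043). Besides the removal of a wt library, these 2 calls were lost on the CPM scale, with no filter on low genes, with the replicate number as a block, and without mutant 2 (limma adjusted p = 0.0754 and 0.0531), while their direction held in every setting tried.

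Among the HIF targets that did not pass, Vegfa, the angiogenic growth factor, differed between the mutants themselves. It read 1579, 1010.5 and 1509.9 in wt 1 to 3 and 1533 and 5268 in mutants 1 and 2. Mutant 1 lay within the wt range, and mutant 2 was the only library above it (log2 fold change 1.08, 95% interval -0.11 to 2.28, limma adjusted p = 0.193). Without mutant 2 its log2 fold change was 0.19. Ak4, a mitochondrial adenylate kinase, had the lowest fold change of the 40 but few reads, at 65.5, 104 and 75.1 in wt 1 to 3 and 37.2 and 12.8 in mutants 1 and 2 (log2 fold change -1.77, SE 0.437, limma adjusted p = 0.0578). The cytokine and tautomerase Mif, the most abundant HIF target per kilobase (4192 in wt), read 3176, 3186 and 3008 in wt 1 to 3 and 2511 and 1617 in mutants 1 and 2 (log2 fold change -0.63, SE 0.175, limma adjusted p = 0.0752). Both genes were lower in each mutant and lowest in mutant 2. Bnip3, a mitophagy receptor, read 608 to 649.7 in wt and 508 and 510.3 in mutants 1 and 2. Higd1a, a respiratory chain assembly factor, read 267 to 308 in wt and 212 and 202 in mutants 1 and 2. In both genes the mutants lay below wt and near each other, and the log2 fold changes of -0.31 and -0.47 missed the threshold (limma adjusted p = 0.0691 and 0.0583). Ankrd37 overlapped between the groups (52.9 to 87.1 in wt and 63.6 and 41.5 in mutants 1 and 2). By DESeq2, 5 of the 10 were lower, namely Ak4, Bnip3, Higd1a, Mif and P4ha1, and Kdm3a and Ndrg1 were higher. Among all genes, DESeq2 called 8.73% lower and 7.48% higher.

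**Figure D3:**
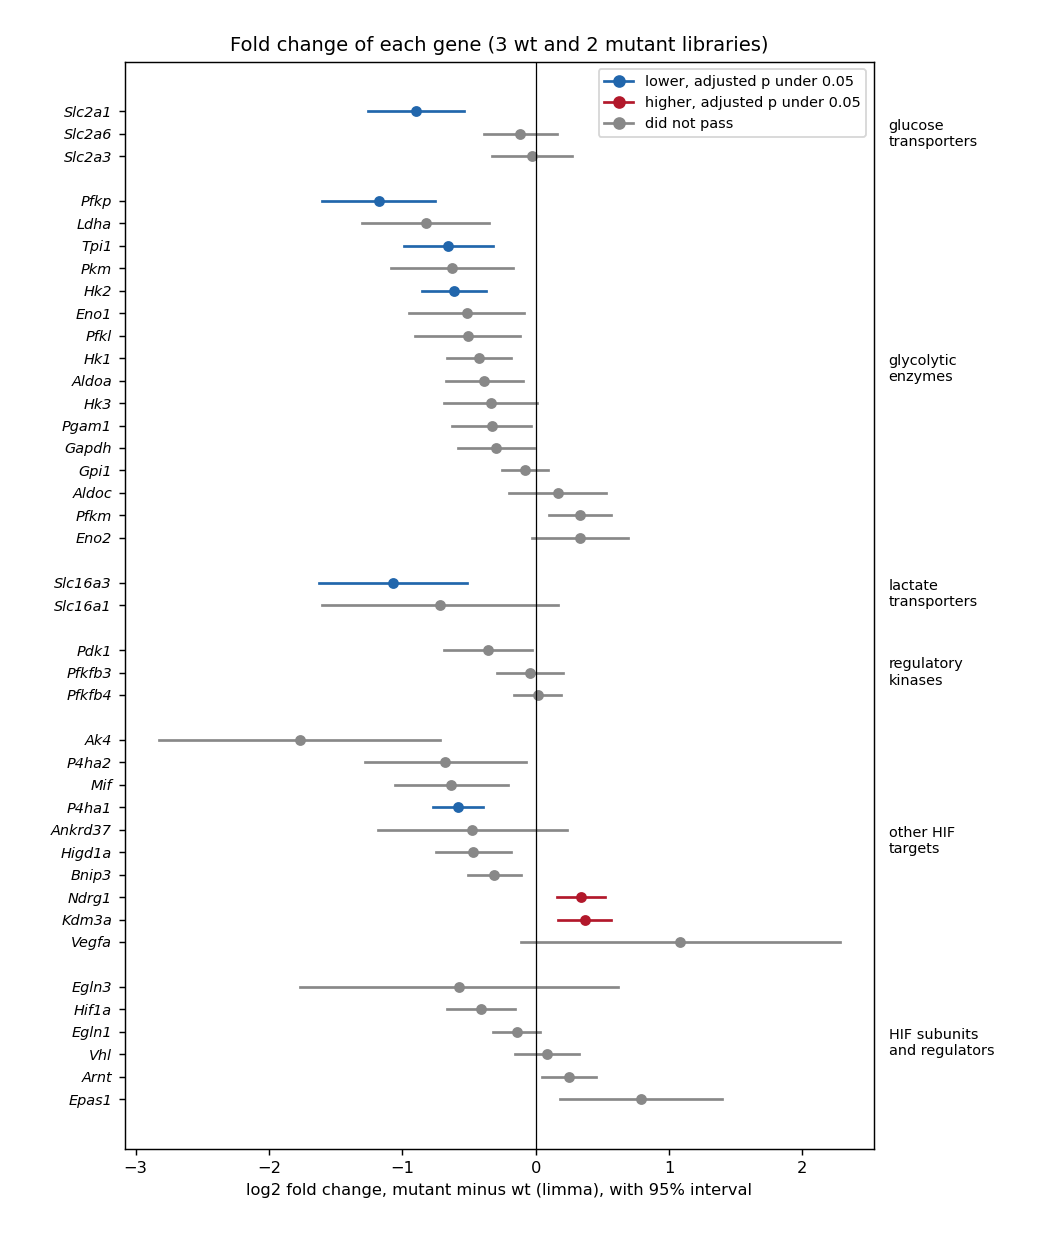
Log2 fold change of each of the 40 genes (mutant minus wt, limma on log2(normalized count + 2)) with its 95% interval, ordered within each role. Blue and red mark genes called lower and higher at an adjusted p under 0.05, and grey the 32 that did not pass. Of the enzymes 13 of 16 lie left of 0, and of the other HIF targets 7 of 10, the latter from Ak4 at -1.77 to Vegfa at 1.08.

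No HIF subunit or oxygen-sensing regulator passed limma or edgeR, and 1 was lower and 2 higher at an unadjusted limma p under 0.05. DESeq2 called Hif1a lower (adjusted p = 0.0246) and Epas1 higher (adjusted p = 0.0329). Hif1a, the alpha subunit that drives glycolytic genes, read 3697, 4292 and 3619.6 in wt 1 to 3 and 3125 and 2710.0 in mutants 1 and 2, with both mutants below wt (log2 fold change -0.41, 95% interval -0.66 to -0.15, limma adjusted p = 0.0648). Epas1, the alternative alpha subunit HIF2A, read 104, 181 and 155 in wt 1 to 3 and 276 and 223 in mutants 1 and 2, with both mutants above wt (log2 fold change 0.79, 95% interval 0.18 to 1.40, limma adjusted p = 0.0974). The Epas1 share of the pair, per kilobase, was 2.87% to 4.32% in wt, 8.52% in mutant 1 and 7.99% in mutant 2. The log2 ratio of Epas1 to Hif1a was higher by 1.20 in the mutants, without overlap (exact permutation p = 0.1, the smallest possible).

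Arnt, the shared partner, read 2163, 2061 and 2058 in wt 1 to 3 and 2318 and 2675 in mutants 1 and 2, above wt in both mutants (log2 fold change 0.25, limma adjusted p = 0.106). The ubiquitin ligase subunit Vhl read 607 to 652 in wt and 612 and 714 in mutants 1 and 2 (95% interval -0.16 to 0.33). Egln1, the main oxygen sensor, read 1778, 1739 and 1871 in wt 1 to 3 and 1671 and 1584 in mutants 1 and 2, a small difference with both mutants below wt (log2 fold change -0.14, 95% interval -0.32 to 0.03). Egln3, a sensor that is itself a HIF target, read 92, 63.7 and 113 in wt 1 to 3 and 104 and 31.9 in mutants 1 and 2. Mutant 1 lay inside the wt range and mutant 2 below it (log2 fold change -0.58, 95% interval -1.77 to 0.62). In the authors' deposited table, 10 of the 40 genes were lower and 3 higher in the mutant at an adjusted p under 0.05. Over all 30478 rows the shares were 3.66% and 3.51%. That base also holds rows too low for the limma test, which covered 14977 genes, so these 2 shares understate the background for expressed genes. There, Arnt joined Kdm3a and Ndrg1 among those higher, and Hk1, Ldha, Pfkl and Bnip3 joined the 6 lower genes named above.

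Glycolytic enzymes and the other HIF targets are set side by side here. The enzymes had 3 lower and 0 higher calls of 16 and the other HIF targets 1 lower and 2 higher of 10. Among all genes tested, 4.89% were called lower and 3.71% higher. At an unadjusted limma p under 0.05, 11 enzymes were lower and 1 higher, and 6 other HIF targets were lower and 2 higher. The shares of all genes at that threshold were 17.7% and 13.9%. Median log2 fold changes were -0.40 in the enzymes and -0.47 in the other HIF targets. Fold changes spanned -1.18 to 0.33 in the first and -1.77 to 1.08 in the second. Relative to the wt mean, the median enzyme was at -0.19 in mutant 1 and -0.58 in mutant 2, with the wt libraries between -0.02 and 0.02. The median HIF target was at -0.28 in mutant 1 and -0.59 in mutant 2, with the wt libraries between -0.00 and 0.02. The difference between the lists was not tested. Mutant 2 was below mutant 1 in 15 of 16 enzymes, all but Pfkm, and in 6 of 10 HIF targets, against 49.4% of all genes tested.

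Proliferation genes were below wt in both mutants for 30 of the 32, against 26.9% of all genes, and lower in mutant 2 than in mutant 1. By limma 2 fell (6.25%, against 4.89% of all genes) and 0 rose. At an unadjusted limma p under 0.05, 25 were lower and 0 higher, against 17.7% and 13.9%. The edgeR test called 2 lower and DESeq2 10 lower, against 4.47% and 8.73%, and neither called any higher. Their median level was -0.26 in mutant 1 and -1.44 in mutant 2, with the wt libraries between -0.07 and 0.10. Mutant 2 was below mutant 1 in all 32, against 49.4% of all genes tested. The summed level of the 32 was 4249 to 4738 CPM in wt and 3481 and 1517 in mutants 1 and 2. Mki67, a marker of cycling cells, read 15365, 16433 and 15681 in wt 1 to 3 and 15384 and 6795 in mutants 1 and 2. It was 1 of only 2 genes of the list that overlapped between the groups. Whether the lower level of proliferation genes has a part in the glycolytic difference was not tested. In mutant 1 alone, set against wt, the log2 fold changes were -0.86 for Pfkp, -0.65 for Slc2a1, -0.64 for Slc16a3, -0.52 for Hk2, -0.49 for P4ha1 and -0.42 for Tpi1. Against the full values, those of Slc16a3 and Tpi1 were over 1.5 times smaller. All of these genes were called lower in a test that included mutant 1, so their values in mutant 1 are not independent of the calls. Over all 16 enzymes the median in mutant 1 was -0.19.

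**Figure D4:**
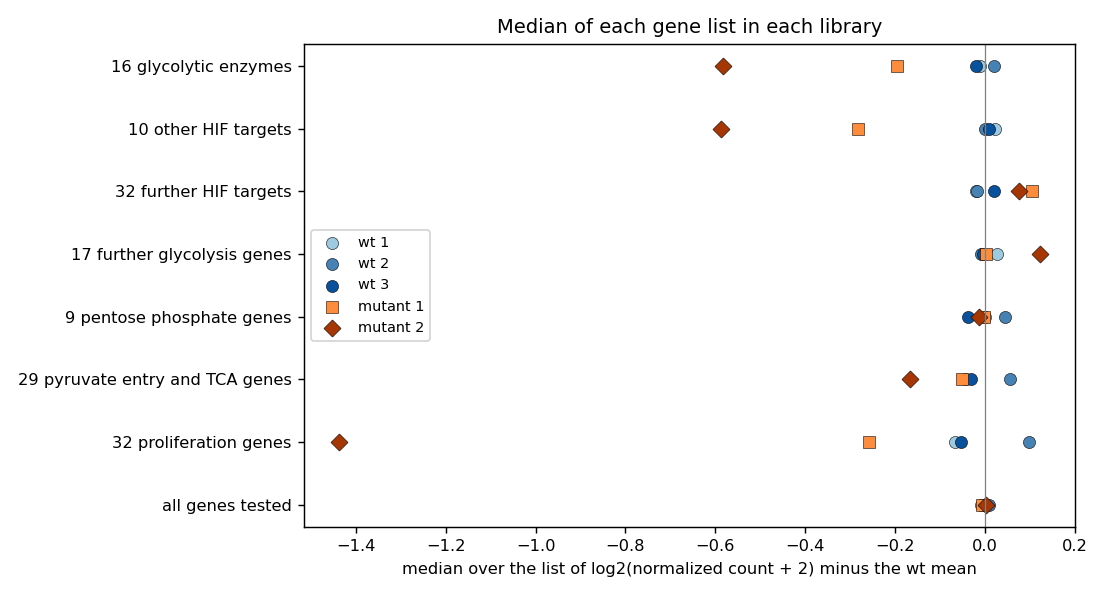
Median of 7 gene lists and of all genes tested in each library, as log2(normalized count + 2) minus the mean of the wt libraries. Circles are wt libraries, the square mutant 1 and the diamond mutant 2. Glycolytic enzymes (-0.19 and -0.58) and other HIF targets (-0.28 and -0.59) lie below wt in both mutants, proliferation genes reach -1.44 in mutant 2, and the other 4 lists shown lie between -0.17 and 0.12 in the mutants.

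Other genes of these pathways were read as fixed lists. Among all genes tested, limma called 4.89% lower and 3.71% higher, the shares behind the counts of these lists. Of 17 further glycolysis genes tested, 0 fell and 2 rose (11.8%). At an unadjusted limma p under 0.05, 3 were lower and 4 higher, and DESeq2 called 1 lower and 2 higher. Pdk2, another inhibitor of pyruvate dehydrogenase, read 149, 123 and 140.0 in wt 1 to 3 and 247 and 408 in mutants 1 and 2, above wt in both mutants (log2 fold change 1.20, SE 0.228, limma adjusted p = 0.0305). Ldhd, the D-lactate dehydrogenase, rose from few reads, at 9.12, 5.38 and 13 in wt 1 to 3 and 32.3 and 30.8 in mutants 1 and 2 (log2 fold change 1.65, SE 0.363, limma adjusted p = 0.0449). The list median was 0.04.

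Of 32 further HIF targets tested, 2 rose (6.25%, against 3.71% of all genes), and the list median was 0.02. At an unadjusted limma p under 0.05, 4 were lower and 10 higher, against 17.7% and 13.9% of all genes. The nuclear receptor Rora (log2 fold change 0.68, limma adjusted p = 0.0338) and the selenium-binding protein gene Selenbp1 (log2 fold change 0.64, limma adjusted p = 0.0357) rose. Among 9 pentose phosphate genes, 0 passed by limma, edgeR or DESeq2, with 1 lower at an unadjusted limma p under 0.05 and a median of -0.10.

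Of 29 genes of pyruvate entry and the TCA cycle, limma called 0 lower and 2 higher (6.9%), edgeR 0 and 2, and DESeq2 1 and 3. At an unadjusted limma p under 0.05, 4 were lower and 4 higher. Idh1, the cytosolic isocitrate dehydrogenase, read 3748, 3981 and 3684 in wt 1 to 3 and 5710.1 and 6953 in mutants 1 and 2 and rose by 0.73 (SE 0.0989, limma adjusted p = 0.0115). Pdp1, a phosphatase that activates pyruvate dehydrogenase, rose by 0.46 (limma adjusted p = 0.0338). Among 15 MYC and growth regulators, 2 fell (13.3%) and 1 rose (6.67%), against 4.89% and 3.71% of all genes. The edgeR test called 1 lower and 2 higher, against 4.47% and 4.29%, and DESeq2 3 and 2, against 8.73% and 7.48%. At an unadjusted limma p under 0.05, 4 were lower and 5 higher, against 17.7% and 13.9%. Myc, a transcription factor that drives glycolytic genes, read 1027, 1057 and 1049 in wt 1 to 3 and 796 and 781 in mutants 1 and 2, below wt in both mutants by similar amounts (log2 fold change -0.40, SE 0.0716, limma adjusted p = 0.0258). Rptor, the mTORC1 scaffold, fell by 0.47 on the log2 scale (limma adjusted p = 0.0462) and Txnip, an inhibitor of glucose uptake, rose by 0.53 (limma adjusted p = 0.0455). Apart from Idh1 without wt 2 (limma adjusted p = 0.0493), none of the 9 genes named from these other lists was called without a wt library.

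Summed levels of other cell types' markers also differed between the groups, and a single gene made up most of the difference for B cell, T and NK cell, neutrophil and macrophage lists. The B cell genes, all 16 in the table, summed to 106 to 131 CPM in wt and 213 and 237 in mutants 1 and 2. Of the 13 tested, 12 had fold changes above 0 and 1 passed (7.69%, against 3.71% of all genes called higher). Fold changes were below 0 in 49.9% of all genes. The sum without Ighm, the immunoglobulin heavy chain gene, was 27.9 to 28.7 CPM in wt and 43 and 29.3 in mutants 1 and 2. The T and NK cell genes, 15 of 16 in the table with Prf1 at 0, summed to 11.3 to 15.3 CPM in wt and 25.6 and 44.5 in mutants 1 and 2, of which Cd4, a gene that macrophages can also express, made up 8.24 to 11.3 CPM in wt and 22.7 and 42.3 in mutants 1 and 2. Without Cd4 the sum was 3.02 to 4.16 CPM in wt and 2.88 and 2.2 in mutants 1 and 2. The other 2 of the 3 genes tested were lower in both mutants, against 26.9% of all genes.

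The neutrophil genes, all 14 in the table, summed to 120.2 to 165 CPM in wt and 236 and 295 in mutants 1 and 2. Mmp8, a neutrophil collagenase, made up 50.2 to 62.3 CPM in wt and 143 and 149.5 in mutants 1 and 2. Of the 11 tested, 9 overlapped between the groups, and without Mmp8 the sum was 70 to 103 CPM in wt and 92.6 and 146 in mutants 1 and 2, so mutant 1 lay within the wt range. The macrophage genes, 14 of 15 in the table, summed to 24298 to 27397 CPM in wt and 32038 and 44149 in mutants 1 and 2. Lyz2, which encodes lysozyme, alone read 4177 to 4982 CPM in wt and 10258 and 17195 in mutants 1 and 2, and without it the sum was 20121 to 22415 CPM in wt and 21780.2 and 26953 in mutants 1 and 2. Of the 14, 7 overlapped between the groups. Among all genes tested, 26.9% had both mutants below all wt libraries and 24.3% above, the shares behind both overlap counts.

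The erythroid and platelet genes, 9 of 14 in the table with Gp1bb, Hba-a1 and Slc4a1 at 0, summed to 112 to 154 CPM in wt and 186 and 155 in mutants 1 and 2, nearly all of it Pf4. The dendritic cell genes, all 11 in the table, summed to 28.8 to 37.1 CPM in wt and 21 and 27.2 in mutants 1 and 2. Of 10 tested, 7 had fold changes below 0 and 3 above, against 49.9% of all genes below 0. The mast cell and eosinophil genes, 10 of 14 in the table, summed to 9.25 to 10.4 CPM in wt and 5.26 and 4.58 in mutants 1 and 2. The mesothelial and fibroblast genes, 14 of 16 in the table with Krt18, Krt19 and Lum at 0, summed to 5.01 to 6.13 CPM in wt and 3.05 and 3.12 in mutants 1 and 2. Genes of large peritoneal macrophages, 19 of 20 in the table with Gata6 and Timd4 at 0, summed to 194 to 220.2 CPM in wt and 212 and 174 in mutants 1 and 2. Cd9 made up most of it, at 170 to 191 CPM in wt and 183 and 151 in mutants 1 and 2. Without Cd9 the sum was 24.1 to 29.3 CPM in wt and 28.7 and 22.8 in mutants 1 and 2, and only 9 of these genes could be tested. The 23 interferon-stimulated genes summed to 4842 to 4975 CPM in wt and 966 and 953 in mutants 1 and 2. All 23 fell, against 4.89% of all genes. The part of these shifts, and of the Rn18s share, in the results above was not tested.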

How the data were processed

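Peritoneal macrophages were isolated by flow cytometry and sequenced as strand-specific mRNA libraries, per the labels and the series' design text. Per the submitters' processing notes, STAR, featureCounts (Subread), DESeq 1.6.1 and build mm10 were used. Which annotation and strand setting featureCounts used is not stated there. The signal deposited for a library is a normalized count, that is a read count divided by 1 size factor per library, judged from the values: 100% were whole multiples of the lowest value within 0.001 reads, and reads were recovered so. The log2 fold change (wt over mutant), adjusted p-value, and test score columns that the authors deposited come from their own fit, whose libraries are not all analysed here: Gata6, at 0 in these 5, has a mean above 0 there. The deposited GC percent was not used. Deposited gene lengths equalled the exon union of GENCODE M21 for the 41 rows.

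The test was limma 3.58.1 in R 4.3.3, with its trend option, mutant minus wt, on log2(normalized count + 2). It covered 14977 genes reaching 10 in no fewer than 2 libraries and was two-sided, Benjamini-Hochberg adjusted over all of them, threshold 0.05. edgeR 4.0.16 and DESeq2 1.42.0 were run on recovered reads. The limma procedure was tested on simulated data with equal spread in both groups. Here the mutants differed more (mean chi-square per gene 53.7, against 12.6 to 22.9 between wt libraries), which that simulation does not cover. Depth was 27282354 to 33119434 reads, and a count of 0 allows up to 3 reads (counting error only). Replicates differed beyond sampling noise (mean chi-square per gene 12.6 to 53.7), so each counted as 1 sample. The genes and lists were chosen with earlier results of these data known. Values by library are given for called genes, related genes of one step and the most abundant gene of each role, and of other lists for at most 4 called genes. The proteins of related genes were not compared. The result of 1 gene of the further HIF targets is not reported here.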

Additional observations from a re-analysis of the deposited data

How the results depend on the processing

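With pseudocounts of 1 or 8, a filter at 50, TMM scaling or limma-voom, the same 40 genes kept their direction and their side of the threshold. Calls moved as follows, from 6 lower and 2 higher among the 40 genes, 3 lower among enzymes, 1 lower and 2 higher among other HIF targets, and 732 lower and 556 higher over all genes. DESeq2 gave 14 and 4, 6, 5 and 2, and 1308 and 1121. With no filter, and on the CPM scale, 0 of the 40 were higher, so 0 HIF targets. The replicate number as a block left 0 of the 40 lower and 0 higher, so 0 in each list, and 75 and 6 over all genes, with 1 residual degree of freedom. The numbers do not pair the libraries by any label, and same-numbered deviations correlated at -0.23 and -0.36. Leaving out 1 library gave 0 to 25 lower and 0 to 5 higher among the 40, 0 to 12 lower enzymes, 0 to 6 lower and 0 to 3 higher HIF targets, and 173 to 2929 lower and 29 to 2062 higher genes. Without Rn18s in the total, Tpi1 and Slc16a3 were no longer called, edgeR lost Slc16a3, and a robust prior exchanged Slc16a3 for Hk1. Medians of the enzymes ran from -0.58 to -0.19 and of the HIF targets from -0.59 to -0.28 over all settings. Signs turned for 7 genes that limma did not call with every library: Pfkfb4 (-0.026 on the CPM scale, -0.032 to 0.062 leaving out 1 library), Slc2a3 (-0.18 to 0.13), Slc2a6 (-0.30 to 0.072), Aldoc (-0.10 to 0.43), Pfkfb3 (-0.18 to 0.092), Vhl (-0.027 to 0.20) and Egln3 (-1.40 to 0.24). The cause of these changes was not tested. Scaling moved the median of all genes by at most 0.04.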
